A study of Rattus norvegicus with 20 samples.

Results

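The miRNAs rno-miR-338-5p, rno-miR-338-3p, rno-miR-219a-5p and rno-miR-219a-2-3p, the 4 arms of 2 hairpins known for their place in oligodendrocytes, were followed in the rat brain. They were chosen by name, as 4 of the 617 miRNAs with reads, and the reads of every sequence assigned to each name were summed in each library. Small RNA had been sequenced from tissue punches of the adBNST, the anterodorsal part of the bed nucleus of stria terminalis in the extended amygdala, in 20 Sprague-Dawley rats. The rats were separated from their dams on postnatal day 21 and then lived for 6 weeks either alone (socially isolated, SI) or with same-sex littermates (group housed, GH). Each sex had 5 GH rats, which were the controls, and 5 SI rats, and all were tested on the elevated plus maze at 9 weeks of age and killed afterwards. The females sequenced were picked from a larger set for high RNA integrity and for a spread of estradiol levels. A punch holds all cell types of the nucleus, so fewer cells of a type and less RNA per cell cannot be told apart.

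A miRNA hairpin is cut into a short duplex whose strands are named the 5p and the 3p arm, and usually the strand that is loaded into an Argonaute protein is kept and the other is lost. In the oligodendrocyte lineage, miR-219 and miR-338 rise as precursor cells leave the cell cycle and form myelin, and they are known to repress genes that hold the precursors in their dividing state, among them Pdgfra, Sox6 and Hes5. Most work on their function concerns miR-219a-5p and miR-338-3p, and the opposite arms are less studied.

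The mature sequences are shown first because the arms of a hairpin have different seeds and so different sets of targets. The RefSeq table for the rat build GRCr8 held all 4 of them, and bases 2 to 8, the seed, are in capitals.
rno-miR-338-5p: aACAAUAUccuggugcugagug
rno-miR-338-3p: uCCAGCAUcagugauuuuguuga
rno-miR-219a-5p: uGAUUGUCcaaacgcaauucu
rno-miR-219a-2-3p: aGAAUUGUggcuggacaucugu
No 2 of these seeds were alike, and no other mature rat miRNA in that table had any of them. The hairpins from which they are cut follow, with both arms in capitals.
Mir338: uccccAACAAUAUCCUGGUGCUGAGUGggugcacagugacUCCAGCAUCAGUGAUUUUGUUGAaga
Mir219-2: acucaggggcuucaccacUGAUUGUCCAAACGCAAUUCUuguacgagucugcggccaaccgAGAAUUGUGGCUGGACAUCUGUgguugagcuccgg
The hairpin of miR-338 lies at chr10:105796342-105796407 on the minus strand of GRCr8, within the bounds of Aatk, a gene for a kinase of the nervous system. That of miR-219a-2 lies at chr3:33516504-33516599, also on the minus strand. The sequence of miR-219a-5p stands whole in a further hairpin, Mir219a1 on chromosome 20, so its reads cannot be placed at either locus, although the deposited tables assign them all to mir-219a-2. The arm from that other hairpin which can be told apart, miR-219a-1-3p, had 809 reads in 18 libraries, and miR-219b, from the strand opposite Mir219-2, had 3 reads in 1 library. From the strand opposite Mir338, miR-3065-5p was read in 6 libraries and miR-3065-3p in 5.

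The libraries held between 3428930 and 11383055 miRNA reads. Between 367 and 530 miRNAs were listed per library, and the 3 libraries with the fewest were those of the SI rats I16F (367), I17M (406) and I17F (422). For the last 2 of these, the sample labels and the deposited file names give opposite sexes. They were placed by their labels, and values with these 2 libraries exchanged are given where a call changed. Every listed sequence had at least 2 reads, so a value of 0 means that no sequence was listed. The reads had passed through 22 cycles of PCR from 215 ng of total RNA and carry no molecular identifiers here, so they are not independent molecules. Levels are given as normalized CPM, that is counts per megaread of miRNA after scaling of the libraries by TMM. Fold changes come from edgeR's quasi-likelihood test over the 500 miRNAs with at least 10 reads in at least 5 of the 20 libraries, with Benjamini-Hochberg adjustment over all 500. All 4 arms passed this filter.

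By reads, the abundant arm of both hairpins was the opposite one from the arm that most functional work concerns. How evenly the arms of a hairpin are captured in these libraries was not measured, so abundance here means reads. Over the 20 rats miR-219a-2-3p, at a mean of 3895 normalized CPM, ranked 44 of the 500 miRNAs, and miR-338-5p, at 1804, ranked 72. The minor arms were miR-338-3p, at 70.3 normalized CPM and rank 242, and miR-219a-5p, at 10.2 and rank 362. This order held for the means of each of the 4 groups. The abundant arms were read in all 20 libraries, miR-338-3p in 19 and miR-219a-5p in 17. Both abundant arms begin with A and both minor arms with U. Among the 454 tested miRNAs with a sequence in the table, the median log2 fold change between SI and GH males was -0.01 for the 129 that begin with A and -0.09 for the 177 that begin with U, and in females it was -0.25 and -0.10.

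**Figure D1:**
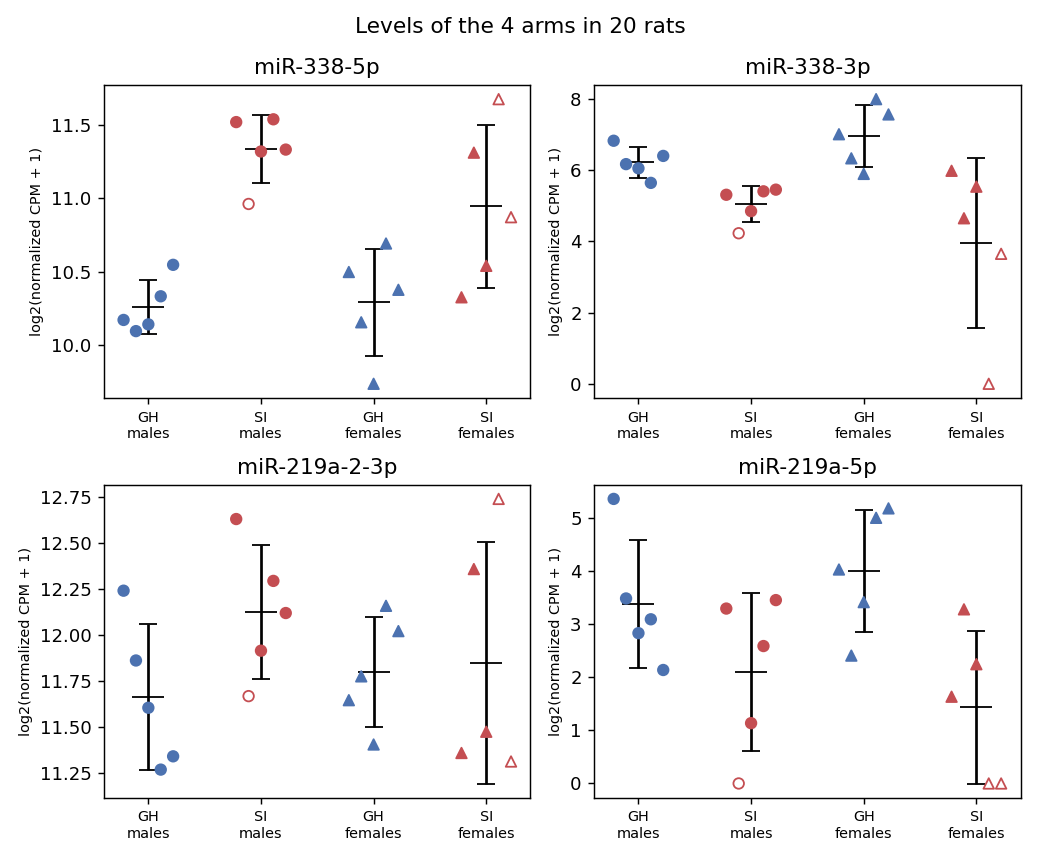
Level of each arm as log2(normalized CPM + 1) in the 20 rats, by group, with a bar for the mean and whiskers for the SD (n = 5 per group). Open symbols are the 3 libraries with the fewest miRNAs listed. In males all SI values of miR-338-5p lie above all GH values and all SI values of miR-338-3p lie below them.

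miR-338-5p, the abundant arm of its hairpin, was higher in SI than in GH males. In the 5 GH males it was at 1094, 1130, 1153, 1290 and 1496 normalized CPM, and in the 5 SI males at 1994, 2553, 2577, 2934 and 2973. Every SI male lay above every GH male. The means were 1233 ± 165 (SD, n = 5) and 2606 ± 394 (SD, n = 5) normalized CPM, and the log2 fold change was 1.08 ± 0.23 (SE), or 2.11-fold, with an adjusted p of 0.0105 in edgeR's quasi-likelihood test. Among all 500 miRNAs, 1.40% passed this threshold as higher in SI males, and miR-338-5p had the fifth lowest p, with 45 miRNAs showing a larger log2 fold change. Groups of males that did not overlap, with SI higher, were found for 4.60% of the 500. The median log2 fold change over all 500 was -0.01.

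In females the change of miR-338-5p had the same sign and did not pass the threshold. GH females had 853, 1141, 1330, 1446 and 1655 normalized CPM of it. SI females had 1284, 1489, 1873, 2540 and 3270, of which 3 lay above every GH female. The log2 fold change was 0.70 ± 0.23 (SE) with an adjusted p of 0.101 and an unadjusted p of 0.00618 in edgeR's test, and 0.400% of the 500 miRNAs passed in females, all of them lower. Leaving out the SI female I10F, the lowest of its group, brought the adjusted p to 0.0267 at a log2 fold change of 0.85. DESeq2's Wald test without the count filter gave 0.0349. In both settings more of all miRNAs were called in females than in the fit above, as given in the last section. Averaged over the sexes, miR-338-5p was higher in SI rats by 0.89 ± 0.17 (SE) on the log2 scale, with an adjusted p of 0.0039 and the second lowest p of the 500.

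miR-338-3p, the arm with the well-studied part in oligodendrocyte maturation, lay on the other side. It was at 49.1, 65.5, 71.2, 83.7 and 113 normalized CPM in GH males and at 17.8, 27.9, 38.7, 41.5 and 42.9 in SI males. These groups did not overlap, which with SI lower was the case for 9.20% of the 500 miRNAs. The log2 fold change in males was -1.18 ± 0.68 (SE), with an adjusted p of 0.301 in the fit of all 4 groups. With only the 10 males in the fit it was -1.20 and passed, with an adjusted p of 0.0177. More of all miRNAs were called in that fit as well, as given in the last section.

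In females the values of miR-338-3p were spread further. GH females had 58.7, 79.8, 128, 189 and 255 normalized CPM, whereas SI females had 11.6, 24.1, 45.5 and 62.4, and in I16F it was not listed. Of the 5 SI females, 4 lay below every GH female. The log2 fold change was -2.30 ± 0.70 (SE) with an adjusted p of 0.0838 in edgeR's test. It passed without I16F (log2 fold change -1.97, adjusted p 0.0402), without I10F (-2.78, 0.0278) and with DESeq2 (-2.35, 0.0166). Without I10F 63 miRNAs were called in females in place of 2, and DESeq2 also called more, as given in the last section. Averaged over the sexes, miR-338-3p was lower in SI rats by 1.74 ± 0.48 (SE) on the log2 scale (log2 fold change -1.74, adjusted p 0.0162). That threshold was passed over both sexes by 17.6% of the 500 miRNAs.

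miR-219a-2-3p, the most abundant of the 4 arms, did not pass the threshold in either sex. GH males had 2470, 2596, 3116, 3723 and 4837 normalized CPM, and SI males 3256, 3861, 4447, 5019 and 6331. The log2 fold change in males was 0.45 ± 0.27 (SE) with an adjusted p of 0.336 in edgeR's test. GH females had 2715, 3207, 3507, 4156 and 4570 normalized CPM. SI females parted into 2547, 2630 and 2848 below the GH median and 5246 and 6828 above every GH value. The log2 fold change of 0.15 ± 0.27 (SE) in females (adjusted p 0.782) became -0.14 when the libraries were scaled by their total miRNA reads.

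miR-219a-5p, the arm known as a brake on the precursor state, was close to the limit of detection. It had at most 202 reads in a library. GH males had 3.41, 6.14, 7.56, 10.2 and 40.3 normalized CPM. SI males had 1.20, 5.03, 8.85 and 10, and in I17M it was not listed. GH females had 4.32, 9.71, 15.4, 31.3 and 35.5, and SI females 2.11, 3.76 and 8.75, with none listed in I17F or I16F. The log2 fold changes were -1.43 ± 1.17 (SE) in males (adjusted p 0.519) and -2.71 ± 1.22 (SE) in females (adjusted p 0.198), and over both sexes -2.07 ± 0.84 (SE) with an adjusted p of 0.0891 in edgeR's test. DESeq2's Wald test over both sexes gave -2.11 with an adjusted p of 0.0243. Within each sex DESeq2 called more of all miRNAs than edgeR, as given in the last section. Its count over both sexes is not given here, so this call has no share beside it.

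No difference between the sexes passed the test for any of the 4 arms. Between females and males the adjusted p in edgeR's test was 0.996 for each arm in GH rats and between 0.829 and 0.938 in SI rats. The interaction of housing and sex had adjusted p-values between 0.854 and 0.943, so a difference between the effect in males and the effect in females was not detectable with 5 rats per group. For miR-338-5p the interaction was -0.38 ± 0.33 (SE) on the log2 scale.

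The scale of the libraries touched the size of these values. Scaled by total miRNA reads in place of TMM, the median log2 fold change over the 500 miRNAs was -0.16 rather than -0.01 for males and -0.36 rather than -0.13 for females. miR-338-5p then had log2 fold changes of 0.93 in males (adjusted p 0.0238) and 0.42 in females (adjusted p 0.298).

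The ratio of the arms is taken within a library and so needs no scaling between libraries. It was formed from the raw reads, as log2 with 0.5 added to each arm, and SI and GH were compared by an exact permutation test, two-sided, over all assignments of 5 rats against 5, whose smallest p is 0.0079. For each read of miR-338-3p there were between 10.2 and 26.3 reads of miR-338-5p in GH males and between 60.1 and 112 in SI males. In GH females there were between 6.49 and 14.5, and in the 4 SI females with both arms between 20.6 and 162. The log2 ratio of 5p to 3p was 4.05 ± 0.49 (SD, n = 5) in GH males and 6.32 ± 0.34 (SD, n = 5) in SI males. The difference of 2.27 is 4.83-fold (exact permutation p = 0.0079, n = 5 per group). GH females had a mean of 3.34 ± 0.55 (SD, n = 5) and SI females one of 7.70 ± 4.29 (SD, n = 5), a difference of 4.36 (exact permutation p = 0.0079, n = 5 per group). The value of the SI females rests in large part on I16F, which had 17031 reads of miR-338-5p and none of miR-338-3p. Without I16F the difference in females was 2.52, and with 10 in place of 0.5 added to each arm it was 3.45, both at an exact permutation p of 0.0079.

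**Figure D2:**
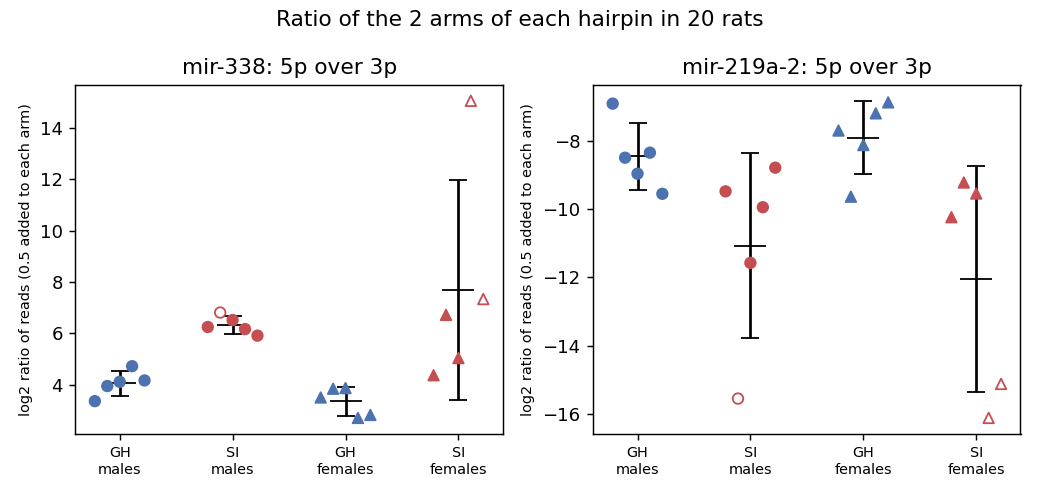
Log2 ratio of 5p to 3p reads of each hairpin in the 20 rats, by group, with a bar for the mean and whiskers for the SD (n = 5 per group). Open symbols are the 3 libraries with the fewest miRNAs listed. For mir-338 no SI rat lies among the GH rats of its sex, as was also so for other hairpins, and I16F stands at 15.1.

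Among all 184 hairpins with both arms tested, the ratio of the major to the minor arm rose at an exact permutation p under 0.05 in 12.5% in males and in 9.78% in females. By the size of that rise, mir-338 ranked 20 of 184 in males and 3 of 184 in females. The rank in females rests in large part on I16F, without which the difference was 2.52, and ranks without I16F were not taken. Adjusted over the 184 hairpins, no hairpin passed in either sex (for mir-338, exact permutation test, adjusted p 0.073 in males and 0.162 in females), where the smallest p that 5 against 5 allows is 0.0079. Other hairpins also had that smallest p, at which the groups do not overlap. Among them were mir-127, mir-221 and mir-382 in males, mir-132, mir-140 and mir-423 in females, and mir-30e in each sex. The share of the 184 hairpins with that smallest p was not counted, and the 12.5% and 9.78% above use a looser criterion. At an unadjusted p under 0.05 there were 41 hairpins in males and 29 in females. With housing permuted within each sex, over 63504 assignments, the difference for mir-338 averaged over the sexes was 3.31, and its exact permutation p of 3.1e-05 is the smallest that this test can give. Of the 184 hairpins, 2 had it, mir-338 and mir-30e, and in mir-30e the major arm fell against the minor. The adjusted p for mir-338 was 0.0023, and 18.5% of the hairpins passed. The ratio of major to minor arm rose by a median of 0.0015 in males and 0.48 in females over all 184 hairpins. The effect on the ratio of mir-338 was larger by 2.09 in females than in males, which an exact permutation of sex within housing did not separate from no difference (p = 0.338).

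**Figure D3:**
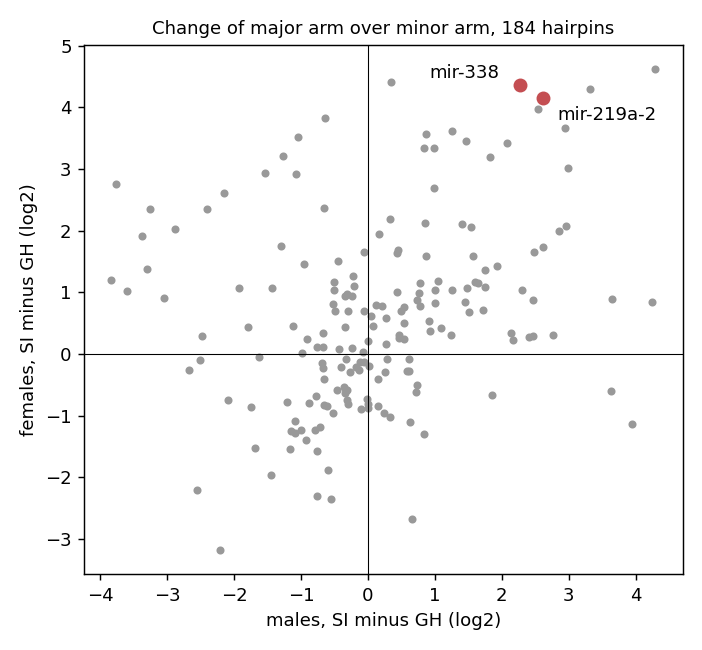
Difference between SI and GH in the log2 ratio of the major to the minor arm, in males (horizontal) and females (vertical), for the 184 hairpins with both arms tested (grey), with mir-338 and mir-219a-2 in red. Both lie in the upper right, at 2.27 and 4.36 for mir-338 and at 2.62 and 4.15 for mir-219a-2. Libraries in which the minor arm was not listed enter the female values of both and the male value of mir-219a-2.

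In the hairpin of miR-219a-2 the ratio also moved towards the abundant arm, here the 3p. For each read of miR-219a-5p there were between 120 and 761 reads of miR-219a-2-3p in GH males and between 444 and 3214 in the 4 SI males with both arms. In females there were between 117 and 811 in GH and between 599.5 and 1247 in the 3 SI rats with both arms. The log2 ratio of 5p to 3p went from -8.45 ± 0.98 (SD, n = 5) to -11.06 ± 2.71 (SD, n = 5) in males, and the exact permutation p was 0.0397 with adjusted p 0.192 over the 184 hairpins. In females it went from -7.90 ± 1.08 (SD, n = 5) to -12.05 ± 3.30 (SD, n = 5), with an exact permutation p of 0.0238 and adjusted p 0.274. These values depend on libraries in which the 5p arm was not listed. Without I16F, I17M and I17F, of which only I17M is a male, the differences were -1.50 in males (exact permutation p = 0.0635) and -1.76 in females (exact permutation p = 0.0893). They also did not pass without any of the 5 GH males or without the GH females G15F, G12F, G16F or G17F, taken in turn. Averaged over the sexes the difference was -3.38, with an exact permutation p of 6.6e-04 and adjusted p 0.0101.

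The minor arms were low in the libraries that listed few miRNAs. In I16F, I17M and I17F miR-219a-5p was not listed, and miR-338-3p was at 0, 17.8 and 11.6 normalized CPM, the lowest value of the SI males and the lowest pair of the SI females. Between 454 and 530 miRNAs were listed in GH males and between 406 and 479 in SI males, and the ranges for females were 459 to 528 with group housing and 367 to 475 with isolation. The number of distinct sequences behind a value of miR-338-3p was also small. Its 160 reads in I12F and its 81 reads in I17F were each of a lone sequence, whereas the 1581 reads in G16F were spread over 22. Without those 3 libraries the log2 fold change of miR-338-3p was -1.03 in males (adjusted p 0.0598) and -1.70 in females (adjusted p 0.0899) in edgeR's test, and over both sexes -1.37 (adjusted p 0.0029). miR-338-5p had 1.15 in males (adjusted p 0.0019) and 0.48 in females (adjusted p 0.34). The ratio of mir-338 still differed without them, by 2.15 in males (exact permutation p = 0.0079) and 2.03 in females (exact permutation p = 0.0179). The part of the number of listed miRNAs in these differences was not tested further.

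**Figure D4:**
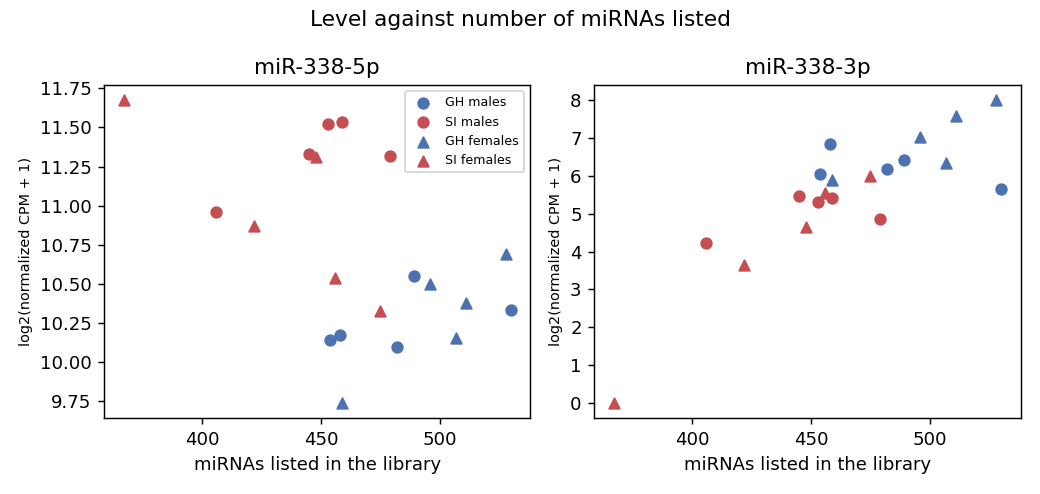
Level of each mir-338 arm, as log2(normalized CPM + 1), against the number of miRNAs listed in the library, for the 20 rats. The lowest value of miR-338-3p, 0 in I16F, belongs to the library with the fewest miRNAs, 367, and the same library has the highest value of miR-338-5p.

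The arms also differed in where their reads ended, which bears on which molecule stands behind each name. The most-read forms follow as they stand in the deposited tables, with T for U.
miR-338-5p, most read: aacaatatcctggtgctgagt
miR-338-5p, reference: aacaatatcctggtgctgagtg
miR-338-3p, most read: tccagcatcagtgattttgtt
miR-338-3p, reference: tccagcatcagtgattttgttga
miR-219a-2-3p, most read and reference: agaattgtggctggacatctgt
miR-219a-5p, most read: tgattgtccaaacgcaattcttg
The most-read form of miR-338-5p lacked the last base of the reference and made up 82.1% of its 236405 reads, while the reference made up 1.75%. That of miR-338-3p lacked the last 2 bases and made up 55.9% of 8438 reads. For miR-219a-2-3p the reference was the most-read form, with 72.1% of 496102 reads. miR-219a-5p ended later than its reference, and its most-read form, longer by 2 bases, made up 31.3% of 1180 reads. The seed was kept in nearly all reads of the abundant arms, since a mean of 4.37% ± 1.10 (SD, n = 20) of the reads of miR-338-5p and 3.48% ± 0.78 (SD, n = 20) of those of miR-219a-2-3p had a changed 5′ end.

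In males the 3′ end of miR-338-5p was more often shortened in SI rats. Its share of reads with a shorter 3′ end was 89.4%, 89.8%, 91.4%, 91.5% and 92.0% in GH males and 92.7%, 92.8%, 93.1%, 93.3% and 95.8% in SI males. The groups did not overlap, and the difference of 2.73 percentage points had an exact permutation p of 0.0079, with an adjusted p of 0.19 over 1101 shares of 232 miRNAs. The same share differed in males at an unadjusted exact permutation p under 0.05 for 20.6% of the 228 miRNAs with such reads, being higher in SI for 32 of them and lower for 15. That criterion is looser than groups that do not overlap, and the share of miRNAs without overlap was not counted. With the I17M and I17F libraries exchanged, the difference for miR-338-5p in males was 1.44 percentage points and no longer passed (exact permutation p = 0.143). Reads with a longer 3′ end made up 5.28% ± 0.74 (SD, n = 5) in GH males and 3.77% ± 1.07 (SD, n = 5) in SI males. The exact permutation p was 0.0079, with an adjusted p of 0.19 over all shares, and it was 0.143 with those libraries exchanged. Of 180 miRNAs with such reads, this share was higher in SI males for 12 and lower for 17 at an unadjusted p under 0.05. Both shares are parts of the same reads, so the longer ends are no separate result. GH females had a shorter end in 92.0% ± 1.7 (SD, n = 5) of these reads and SI females in 91.8% ± 1.9 (SD, n = 5), a difference of -0.18 percentage points with an exact permutation p of 0.881.

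**Figure D5:**
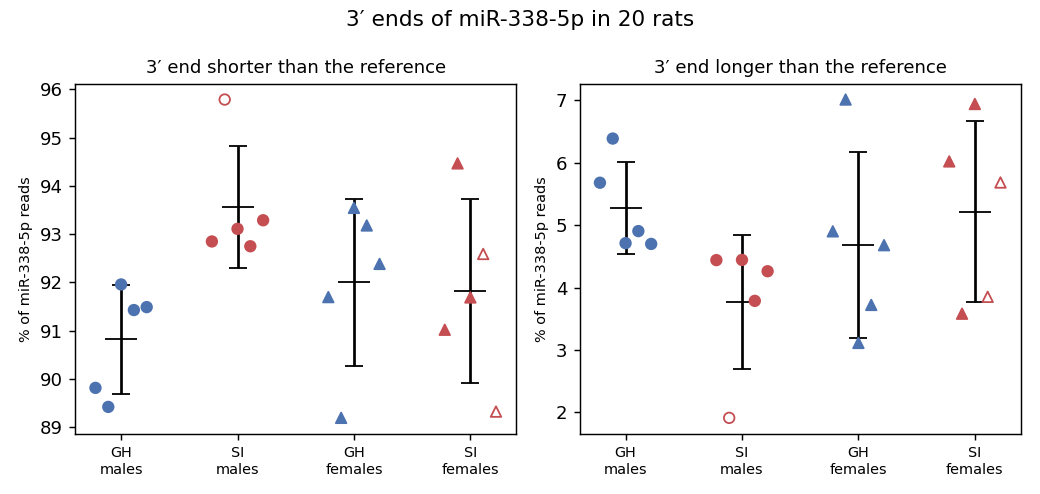
Share of miR-338-5p reads whose 3′ end is shorter (left) or longer (right) than the reference, in percent, in the 20 rats, by group, with a bar for the mean and whiskers for the SD (n = 5 per group). Open symbols are the 3 libraries with the fewest miRNAs listed, and the vertical axes do not start at 0. SI males lie above GH males on the left and below them on the right, with I17M farthest out.

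For miR-219a-2-3p, reads with a changed 5′ end were 3.40% ± 0.43 (SD, n = 5) in GH males and 4.25% ± 0.74 (SD, n = 5) in SI males, with an exact permutation p of 0.0397 and an adjusted p of 0.358 over all shares. This passed unadjusted in 3 of the 10 fits that left out 1 male. Its reads with an added tail were 15.8% ± 0.17 (SD, n = 5) in GH males and 16.4% ± 1.4 (SD, n = 5) in SI males, with an exact permutation p of 0.452. The shares of the minor arms were not tested, since both had fewer than 100 reads in some libraries.

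Taken as separate molecules, the forms of the 4 arms gave no call. Of the 10290 isomiRs tested, which are miRNA forms with the same ends, tail and mismatch, 33 were of miR-338-5p, 6 of miR-338-3p, 4 of miR-219a-5p and 58 of miR-219a-2-3p. None passed in edgeR's quasi-likelihood test in either sex, where 1 of all 10290 isomiRs passed in males and 0 in females. DESeq2's Wald test called 1 form of miR-338-5p in males and no form of the arms in females, beside 157 and 104 of all isomiRs. An unadjusted p under 0.05 was reached by 9.11% of all 10290 isomiRs in males and 9.22% in females. Among the forms of miR-338-5p it was reached by 8 of 33 in males, all higher in SI, and by 3 of 33 in females, all lower in SI. For miR-338-3p it was reached by 2 of 6 forms in males and 4 of 6 in females, all lower. For miR-219a-2-3p it was reached by 3 of 58 in males, 1 of them higher, and 2 of 58 in females, both lower, and for miR-219a-5p by none in males and 1 of 4 in females, which was lower. The 3 forms of miR-338-5p in females had log2 fold changes of -7.81, -6.26 and -5.59. Falls of that size were also among the forms of the other arms counted here. Such a form may have met the count filter only through other groups, and its p is then no test of a fall in SI rats. In females 21 of the 33 forms of miR-338-5p had a positive log2 fold change, and the most-read one had 0.41. The most-read form of miR-338-5p had a log2 fold change of 0.95 ± 0.24 (SE) in males (adjusted p 0.222). The reference form of miR-338-3p, singled out after its values were seen, was listed in 4 of 5 GH males and in 5 of 5 GH females, at up to 43 reads, and in no SI rat of either sex, while all forms of this arm together had up to 414 reads in a SI library. It met the count filter only through GH rats, with 41 reads in G16M, 43 in G15F, 28 in G12F, 23 in G16F and 35 in G17F. Its adjusted p in edgeR's test, 0.222 in males and 0.318 in females, is therefore no test of its absence in SI rats. It is among the forms of miR-338-3p counted above, and how many other isomiRs were listed in GH rats alone was not counted.

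Among rats of the same group the abundant arms varied together, as did the minor arms. Over the 20 rats, as deviations from group means of log2(normalized CPM + 1) and with permutation within groups, the pair of abundant arms had Pearson's r = 0.68 (permutation p = 0.0089, adjusted p 0.0268 over 6 pairs) and Spearman's rho = 0.59 (permutation p = 0.0267, adjusted p 0.0579). Without the 2 rats farthest from the median, I16F and I10F, r was 0.51. The pair of minor arms had r = 0.60 (permutation p = 0.0034, adjusted p 0.0204) and rho = 0.80 (permutation p = 1.4e-04, adjusted p 8.4e-04), and r = 0.74 without the same 2 rats. The arms of mir-338 had r = -0.39 (permutation p = 0.35) and rho = 0.078, and r turned to 0.40 without I16F and I10F. Those of mir-219a-2 had r = 0.47 (permutation p = 0.0688) and rho = 0.54 (permutation p = 0.029, adjusted p 0.0579). All these levels come from the same libraries and share their scaling.

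The miRNAs whose levels ran most like those of each arm over the 20 rats were given by Spearman's rho, as a description. These levels were not centred on group means, so differences between the groups enter the values. For miR-338-5p they were miR-221-3p (0.78), miR-539-5p (0.75) and miR-378a-3p (0.73). miR-338-3p ran closely with miR-30e-5p (0.92), miR-24-2-5p (0.92) and miR-29a-3p (0.92). For miR-219a-5p they were miR-340-3p (0.74), miR-136-3p (0.74) and miR-181c-5p (0.73), and for miR-219a-2-3p they were miR-181b-5p (0.72), miR-764-5p (0.67) and let-7f-1-3p (0.59). Of these, miR-764-5p and let-7f-1-3p were low, at means of 8.66 and 4.99 normalized CPM.

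Other miRNAs that have been tied to the oligodendrocyte lineage or belong to the same families showed no common direction. Of 18 listed, 15 were tested, miR-219b and miR-200a-3p had too few reads and miR-297 had none. None of the 15 passed in males or in females in edgeR's test, where 20 and 2 of all 500 miRNAs did. Of the 15, 8 had a positive log2 fold change in males and 5 in females, with medians of 0.05 and -0.47 beside -0.01 and -0.13 over all 500 miRNAs. Averaged over the sexes, 4 of the 15 passed, 1 higher and 3 lower, beside 88 of all 500 (17.6%), 37 higher and 51 lower. Of these 4, miR-92a-3p, of the miR-17-92 cluster that drives the growth of precursors, was higher in SI rats (log2 fold change 0.48, adjusted p 0.026). The other listed members of that cluster did not pass: miR-17-5p (-0.13, adjusted p 0.94), miR-19b-3p (-0.35, adjusted p 0.85) and miR-20a-5p (0.059, adjusted p 0.95). The 3 that passed as lower were miR-27a-3p (-0.72, adjusted p 0.0113), miR-212-3p (-0.44, adjusted p 0.0451) and miR-32-5p (adjusted p 0.0412), the last at a mean of 2.14 normalized CPM, too low for a fold to be read. miR-138-5p and miR-23a-3p, both of which have been linked to myelinating cells, were called in neither sex nor over both, and miR-219a-1-3p had log2 fold changes of -0.13 ± 1.22 (SE) in males and 1.07 ± 1.23 (SE) in females.

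miRNAs that mark other cells of the punch were measured beside these. The summed level of 5 neuronal miRNAs lay between 56630 and 115600 normalized CPM, and that of the 4 oligodendrocyte arms between 3636 and 10097. For 2 lists the sums did not overlap between the housing groups of males, as was the case for 9.20% (SI lower) and 4.60% (SI higher) of the 500 single miRNAs, and no test of a list was made. The 4 vascular miRNAs summed to between 10470 and 15178 normalized CPM in GH males and to between 4309 and 7208 in SI males, most of it miR-143-3p, the only one of the 4 that passed (log2 fold change -1.15, adjusted p 0.045 in edgeR's test). The 4 erythrocyte miRNAs summed to between 1007 and 1359 in GH males and to between 1493 and 3117 in SI males, nearly all of it miR-486 (log2 fold change 0.85, adjusted p 0.0707). None of the 4 passed, and miR-451-5p was listed in 16 and miR-144-3p in 9 of the 20 libraries. In females the vascular sums were between 11376 and 21974 in GH and between 2130 and 14870 in SI, and the erythrocyte sums between 795 and 1456 in GH and between 1422 and 4036 in SI. The 5 microglial and leukocyte miRNAs overlapped between the housing groups of both sexes, as did the 5 of choroid plexus and ependyma, of which miR-429 was listed in 2 libraries. The part of these other cells in the differences of the 4 arms was not tested.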

How the data were processed

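Small RNA libraries of 20 rats were analysed. According to the paper's methods, the authors removed adapters (cutadapt) and matched the reads with seqbuster, within bcbio-nextgen, to rat miRBase v21 (tool versions not given in the sources used here). The deposited counts are raw reads per distinct sequence, at least 2 each, with its miRNA and isomiR fields.

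Counts were summed per miRNA and per isomiR. Features reaching 10 counts in 5 or more libraries were normalized by TMM and fitted with edgeR 4.0.16 (quasi-likelihood test, 1 model with 4 groups, R 4.3.3), adjusted by Benjamini-Hochberg at 0.05. SE came from the fold change and its F statistic. Arm ratios (pseudocount 0.5) and isomiR shares (100 reads in every library, mean share of at least 0.5%) used exact permutation tests, and correlations 100000 permutations (Python 3.11.15). Adjustment of ratios and shares over all hairpins and miRNAs, in place of the arms alone, was chosen after seeing the data. Alternatives included DESeq2 1.42.0 and limma 3.58.1. Scripts were tested on simulated data. The arms were the 4 given, the isomiRs shown were the most read of each, and the likeness list held the 3 highest correlations. Members and lists were chosen with earlier results of these data known. Replicates were separate rats by their labels, and no library copied another in 190 pairs. GH rats shared cages with littermates, and the labels give neither cage nor litter, so the tests treat every rat as independent.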

Additional observations from a re-analysis of the deposited data

Results flagged for a closer look

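Of 60 groups of 5 rats tested for a value far from the other 4 (Dixon's test at its 95% critical value of 0.71), 6 had one, where chance gives about 1 in 20 groups. I16F stood apart among SI females in the log2 ratio of 5p to 3p of mir-338, at 15.06 with the next at 7.33, since no miR-338-3p was listed in it. I17M stood apart among SI males in 3 shares of miR-338-5p reads, with 95.79% with a shorter 3′ end (next 93.3%), 1.912% with a longer one (next 3.79%) and 2.028% with a mismatch (next 1.63%). This is a library whose label and file name give opposite sexes. G17F was low among GH females in miR-338-5p reads with an added tail, at 4.463% (next 5.52%), and G19M high among GH males in those with a mismatch, at 2.061% (next 1.49%).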

How the results depend on the processing

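Most values kept their direction and side of the threshold, and the cause of those that did not was not tested. In males miR-338-5p stayed called in all 10 fits that left out 1 rat (log2 fold change 0.96 to 1.16, adjusted p up to 0.0464), and the ratio of mir-338 kept its smallest exact p. Rats of a sex with a shared number showed no clear likeness (correlations of deviations from -0.34 to 0.09). With 2 or 3 such pairs per sex, this cannot settle whether the numbers mark pairs. With a replicate block the log2 fold change of miR-338-5p in males was 1.24 (adjusted p 0.0512), and for the same rats without the block 1.24 (adjusted p 0.106). The block gave ratio differences of 1.93 (males) and 6.70 (females) for mir-338 and -2.11 and -6.24 for mir-219a-2, where 2 or 3 pairs cannot pass. The counts of miRNAs called in males, 20, and in females, 2, became 2 and 0 with the block, 1 and 0 for the same rats without it, 40 and 40 with the filter in every library, 84 and 0 with the rats of the sex alone, 11 and 5 with I17M and I17F exchanged, 52 and 67 with DESeq2, 87 (males) with limma voom, and 73 and 1 without the 3 libraries with the fewest miRNAs. Leaving out 1 rat gave 7 to 21 in males, 1 to 63 in females (63 without I10F) and 58 to 117 over both sexes. With the rats of the sex alone miR-338-3p in males was called at -1.20. DESeq2 called miR-338-5p (0.74) and miR-338-3p (-2.35) in females, miR-219a-5p over both sexes (-2.11) and 1 isomiR of the 4 arms in males. Leaving out 1 female gave 0.52 to 0.85 for miR-338-5p, -2.78 to -1.97 for miR-338-3p and -0.089 to 0.28 for miR-219a-2-3p, whose sign in females also turned with total reads (-0.14), limma voom (-0.10) and without the 3 libraries (-0.0081). The ratio difference of mir-219a-2 with 1 rat left out lay between -3.19 and -1.50 (males) and between -4.85 and -3.13 (females). It was -1.50 and -1.76 without the 3 libraries and -2.53 in females from reference sequences alone. Differences in shares that were near 0 changed sign. For miR-338-5p the share with a changed 5′ end in males was 0.054 points with 10 reads per sequence, 0.079 with the exchange and -0.25 to 0.20 with 1 rat left out (0.19 among them). In females its shorter 3′ ends were 1.11 with the exchange and -0.88 to 0.44 with 1 rat left out, its longer ones -0.22 with the exchange, and its mismatches 0.34 with 10 reads per sequence, 0.022 with the exchange and -0.22 to 0.078 with 1 rat left out. For miR-219a-2-3p in females, shorter ends were 0.34 with the exchange and tails -0.0077 to 1.90 with 1 rat left out. Without centring on group means the correlation of miR-338-5p and miR-219a-5p was -0.38. The minor arms, with few reads and few distinct sequences, limit every ratio. The settings without the 3 libraries and for the same rats were chosen after seeing the data.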
